A study of Mus musculus with 14 samples.

Results

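The genes described here encode 9 transcription factors that set or modify macrophage identity, namely Spi1, Cebpa, Cebpb, Irf8, Irf4, Maf, Klf4, Prdm1 and Bhlhe40. They were chosen as named factors, by a rule that sets no threshold on their values, from 55414 genes in the count table, and earlier results of these data were known when they were chosen. All 9 passed the filter on low counts and were among 12851 genes tested. RNA came from primary bone marrow-derived macrophages (pBMDMs), which were grown with M-CSF from the bone marrow of C57BL/6N mice aged 6 to 9 weeks and exposed for 24 h to filtered supernatants. The supernatants came from Pfa1 cells, a fibroblast line from mouse embryos (MEFs). Treatment with 4-hydroxytamoxifen (4OHT, labelled Tam) activates Cre in them and deletes Gpx4, so that they die by ferroptosis. Supernatant was taken from MEFs left untreated (ctrl), treated with 4OHT (the ferroptotic supernatant), treated with 4OHT together with the ferroptosis inhibitor Ferrostatin-1 (4OHT+Fer1), or treated with Ferrostatin-1 alone (Fer1), and the fifth group received fresh medium without contact to MEFs (medium ctrl in the labels, medium here). Each of the 4 supernatant groups had 3 replicates and medium had 2, which makes 14 samples. The sources used here give no genetic change in the macrophages, and any 4OHT or Ferrostatin-1 carried over in a supernatant cannot be told apart from what the MEFs released.

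PU.1, encoded by Spi1, opens the enhancers of macrophage genes together with C/EBP factors, and the balance of these factors steers myeloid progenitors towards macrophages or granulocytes. Interferon regulatory factors, MAF, KLF4, Blimp-1 (encoded by Prdm1) and BHLHE40 then adjust the programme to tissue, cytokines and activation, and several of them act as repressors at their target genes. The question asked of the data was whether the RNA of these factors changed in macrophages that met a ferroptotic supernatant, and whether Ferrostatin-1 in the MEF culture changed that.

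Libraries were sequenced from the 3′ end of transcripts and held between 7823051 and 11052352 counts. Values are given in CPM, which are counts per library size after TMM correction, where 3 counts corresponded to between 0.272 and 0.381 CPM. This limit covers counting error only. The 95% intervals of log2 fold changes given further on come from the model. They include the spread between samples that was left after group and replicate number were fitted. Log2 fold changes, their standard errors (SE) and adjusted p-values came from the quasi-likelihood test of edgeR, adjusted by Benjamini-Hochberg over all genes tested, with the replicate number as a block. A gene was called where the log2 fold change exceeded 1 in size and the adjusted p was under 0.05. The summed CPM of 8 macrophage markers lay between 18862 and 43878 in every library. Of 8 lymphocyte markers the summed level never passed 0.921 CPM. Of 8 neutrophil markers Ly6g and Elane had no count in any sample, but the summed level of the 8 reached 56.5 CPM. The sums of 5 monocyte markers and of 8 fibroblast markers reached 404 and 121 CPM. In bulk RNA, fewer cells with a transcript and less RNA per cell cannot be told apart.

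Macrophages exposed to the ferroptotic supernatant had more Prdm1 RNA than those exposed to ctrl supernatant, by a fold of 2.28, and more Cebpa RNA, by a fold of 1.63. Prdm1 was also higher than in 4OHT+Fer1, by a fold of 1.98, while for Cebpa that fold was 1.43 and did not pass the test. Klf4 moved the other way, with 0.522 times as much RNA in 4OHT as in 4OHT+Fer1. In fresh medium Prdm1, Cebpa and Irf4 exceeded ctrl by folds of 3.91, 2.82 and 3.37. Spi1, Maf, Cebpb, Irf8 and Bhlhe40 passed the test in no comparison.

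Of the 9 factors, 1 was called in 4OHT against ctrl, Prdm1, where 1.11% of all genes tested were called. None was called in 4OHT against 4OHT+Fer1, where 1.03% of genes were called, or in 4OHT+Fer1 against ctrl, where 0.0311% were. In Fer1 against ctrl no gene was called by edgeR at all (0%). There 146 genes (1.14% of those tested) had an unadjusted p under 0.05, none of them one of the 9 factors. At so low a share, none among 9 says little about the factors. In medium against ctrl, 3 of the 9 were called, all higher in medium, where 7.79% of genes were called in either direction, and the same 3 passed on the adjusted p alone (10.9% of genes). In 4OHT against medium none was called, where 3.07% of genes were. Without the threshold on the fold change, Prdm1 and Cebpa passed in 4OHT against ctrl (1.49% of genes passed), Prdm1 and Klf4 in 4OHT against 4OHT+Fer1 (1.35%) and Cebpa in 4OHT against medium (4.26%). The comparisons share samples, 4OHT in the first and second and ctrl in several, so their values are given side by side and not as separate evidence. The median log2 fold change of the 9 factors was 0.14 for 4OHT set against ctrl, 0.35 for 4OHT set against 4OHT+Fer1 and 0.49 for medium set against ctrl, while that of all genes tested was 0.0059, 0.0048 and 0.0084.

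**Figure D1:**
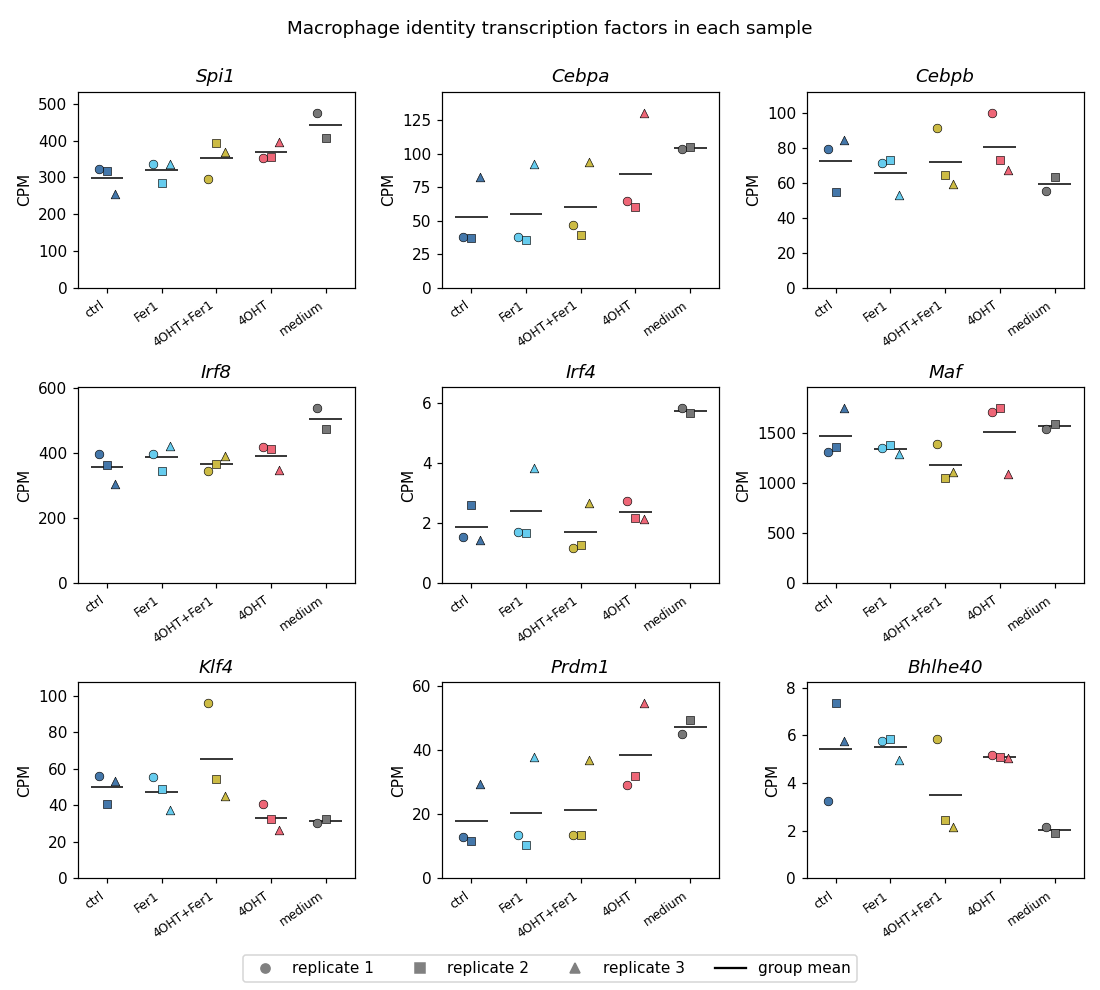
CPM (y axis, starting at 0) of each of the 9 factors in each of 14 samples, by group (x axis), with symbols for the replicate number and bars for group means. The replicate 3 samples of Prdm1 and Cebpa sit above the other replicates of their group in all 4 supernatant groups, and Irf4 is highest in both medium samples.

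Prdm1 (ENSMUSG00000038151) lies on the minus strand at chr10:44437177-44528501 in GRCm38 and overlaps no other gene in GENCODE M21. It encodes Blimp-1, a zinc finger repressor best known for driving plasma cell differentiation, which also restrains inflammatory genes in myeloid cells. Its level was 12.9, 11.7 and 29.4 CPM in ctrl replicates 1, 2 and 3, and 29.2, 31.8 and 54.7 CPM in 4OHT. In 4OHT+Fer1 it was 13.4, 13.4 and 37.0 CPM. In Fer1 it was 13.4, 10.3 and 37.9 CPM, and in the 2 medium samples 45.2 and 49.4 CPM. The order of the group means was ctrl, Fer1, 4OHT+Fer1, 4OHT and medium, from 17.97 to 47.3 CPM. Medium had no replicate 3, which was the highest replicate in each supernatant group, so its mean is not directly comparable. The 4OHT and ctrl samples overlapped by 1 pair, ctrl replicate 3 and 4OHT replicate 1, while within each replicate number 4OHT was higher, by 1.17, 1.43 and 0.89 on the log2 scale. The log2 fold change of 4OHT against ctrl was 1.19 (SE 0.19, adjusted p = 0.0128). The call was kept without replicate 3 (log2 fold change 1.31, adjusted p = 0.0132) and was lost without replicate 1 (1.19, adjusted p = 0.328), without replicate 2 (1.06, adjusted p = 0.404) and in a model of only the groups compared (1.17, adjusted p = 0.249). Against 4OHT+Fer1 the log2 fold change was 0.99 (SE 0.19, adjusted p = 0.0292), just under the threshold on the fold change, and 4OHT was higher in 3 of 3 replicate numbers. Without replicate 3 it was 1.21 (adjusted p = 0.0169). Between ctrl, Fer1 and 4OHT+Fer1 the Prdm1 levels overlapped, with log2 fold changes of 0.20 for 4OHT+Fer1 against ctrl (adjusted p = 0.948) and 0.11 for Fer1 against ctrl (adjusted p = 1).

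Cebpa (ENSMUSG00000034957, plus strand, chr7:35119293-35121928) encodes C/EBPα, the basic leucine zipper factor needed for granulocyte-monocyte progenitors to form. The predicted gene Gm45091 overlaps it on the opposite strand, and since the sources used here do not give whether counting used strand, reads of such pairs could be shared (also for Cebpb, Maf and Bhlhe40). Cebpa stood at 37.7, 37.0 and 82.9 CPM in ctrl and at 64.4, 59.9 and 131 CPM in 4OHT. In 4OHT+Fer1 it stood at 46.5, 39.3 and 94.1 CPM, in Fer1 at 37.4, 35.8 and 92.4 CPM, and in medium at 104 and 105 CPM. The group means were ordered as those of Prdm1, with the same limit on the mean of medium, and ctrl and 4OHT overlapped through ctrl replicate 3 alone. Within replicate numbers 4OHT exceeded ctrl by 0.77, 0.69 and 0.65 on the log2 scale, with a log2 fold change of 0.71 (SE 0.13, adjusted p = 0.0197). The difference no longer passed the test without replicate 1 (adjusted p = 0.426), replicate 2 (adjusted p = 0.579) or replicate 3 (adjusted p = 0.0514), or in a model of only the groups compared (adjusted p = 0.339). Against 4OHT+Fer1 the log2 fold change was 0.52 (SE 0.13, adjusted p = 0.078). That between 4OHT+Fer1 and ctrl was 0.19, with a 95% interval from -0.08 to 0.47, and that between Fer1 and ctrl was 0.04, with an interval from -0.24 to 0.31.

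Prdm1 and Cebpa shared a dependence on the replicate number that the other 7 factors did not show to the same size. Replicate 3 exceeded the mean of replicates 1 and 2 by 1.31 on the log2 scale for Prdm1 (adjusted p = 0.000117) and by 1.17 for Cebpa (adjusted p = 2.5e-05), a contrast chosen after the values had been seen. For the other 7 factors the same contrast lay between -0.36 (Klf4) and 0.46 (Irf4) with adjusted p-values of at least 0.153. Of all genes tested, 6.15% passed both thresholds in this contrast. After the group had been fitted, the replicate number took 46.2% of the variance of Prdm1 log2 CPM and 61.6% of that of Cebpa, and 3.44% and 0.764% were left to neither. In a model without the replicate block, Prdm1 differed by 1.10 on the log2 scale between 4OHT and ctrl (adjusted p = 0.767) and Cebpa by 0.69 (adjusted p = 0.939), so neither difference passed the test in that model. The methods name the mouse in the model, and that the replicate number is the mouse was assumed.

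Klf4 (ENSMUSG00000003032, minus strand, chr4:55527143-55532466) encodes a zinc finger factor that promotes monocyte differentiation and the alternative activation of macrophages. It overlaps no other gene. Its level was 56.1, 40.7 and 53.4 CPM in ctrl, 55.6, 49.0 and 37.3 CPM in Fer1 and 95.9, 54.7 and 45.2 CPM in 4OHT+Fer1. In 4OHT it was 41.0, 32.4 and 26.6 CPM, and in medium 30.4 and 32.5 CPM. Every 4OHT sample was below every 4OHT+Fer1 sample, and 4OHT and ctrl overlapped by 1 pair, ctrl replicate 2 and 4OHT replicate 1. Klf4 fell by 0.94 on the log2 scale in 4OHT against 4OHT+Fer1 (SE 0.21, adjusted p = 0.0476), close to the threshold. The adjusted p was 0.0413 without replicate 3, 0.577 without replicate 1, 0.552 without replicate 2 and 0.107 in a model of only the groups compared. The log2 fold change against ctrl was -0.62 (SE 0.21, adjusted p = 0.234), with the lower level in 4OHT in 3 of 3 replicate numbers. Medium and 4OHT differed by 0.17 on the log2 scale (4OHT minus medium), with a 95% interval from -0.35 to 0.68. Medium was below ctrl in all samples, at a log2 fold change of -0.78 (SE 0.24, adjusted p = 0.0594).

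**Figure D2:**
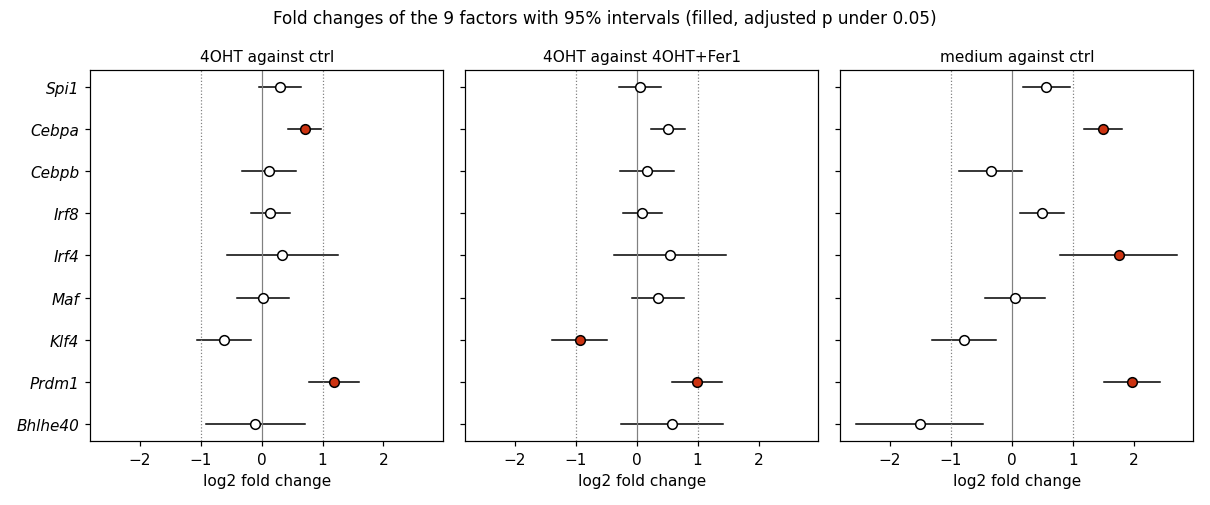
Log2 fold change (x axis) of each of the 9 factors (y axis) in 3 comparisons, with 95% intervals from the edgeR model as lines, the threshold of 1 as dotted lines and filled points where the adjusted p was under 0.05. Prdm1 and Cebpa are filled and above 0 in 4OHT against ctrl, Prdm1 and Klf4 are filled on opposite sides of 0 in 4OHT against 4OHT+Fer1, and Prdm1, Cebpa and Irf4 are filled and above 0 in medium against ctrl.

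Whether Ferrostatin-1 changed the difference made by 4OHT was asked with an interaction, the log2 difference of 4OHT from ctrl minus that of 4OHT+Fer1 from Fer1. It was 1.10 for Prdm1 (SE 0.27, unadjusted p = 0.00143 in edgeR's test, adjusted p = 0.286), -1.04 for Klf4 (SE 0.29, adjusted p = 0.364) and 0.55 for Cebpa (SE 0.18, adjusted p = 0.519). None of the 9 factors passed the adjusted test, which 0.0311% of all genes passed. Among the remaining 6 factors the interaction lay between 0.01 for Cebpb and 0.83 for Irf4, with adjusted p-values of at least 0.974. With Ferrostatin-1 in the culture, 4OHT moved Prdm1 by -0.00077, 0.37 and -0.04 on the log2 scale in replicates 1, 2 and 3, where without it the differences were all at least 0.89. For Klf4 the differences with Ferrostatin-1 were 0.79, 0.16 and 0.27, and those without it -0.45, -0.33 and -1.002. For Cebpa they were 0.31, 0.13 and 0.03 with Ferrostatin-1, each smaller than its counterpart without it.

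**Figure D3:**
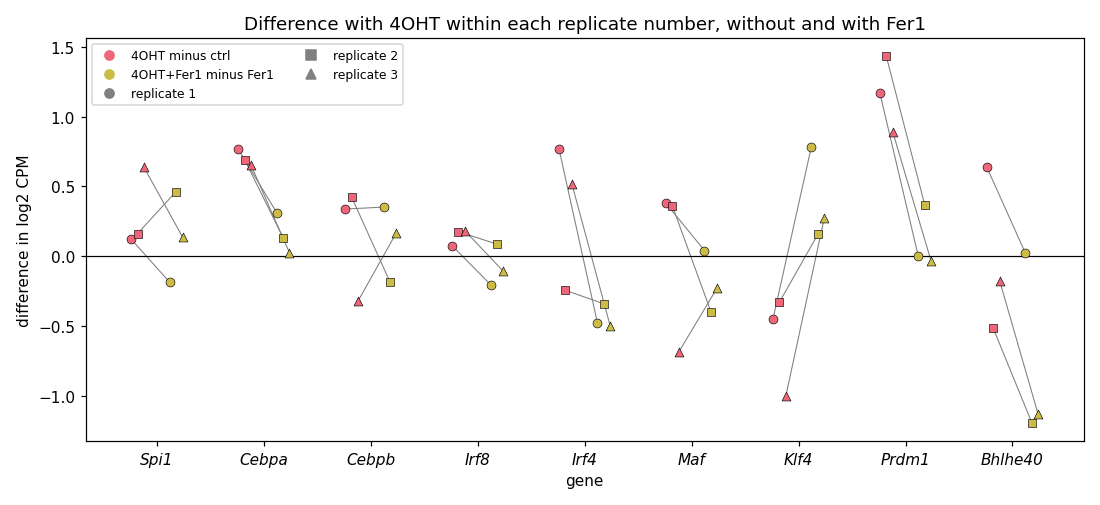
Difference in log2 CPM within each replicate number (y axis) for each factor (x axis), 4OHT minus ctrl in red and 4OHT+Fer1 minus Fer1 in yellow, with lines joining the same replicate number. For Prdm1 the differences are 1.17, 1.43 and 0.89 without Ferrostatin-1 and lie between -0.04 and 0.37 with it, and for Klf4 all lie below 0 without it and above 0 with it.

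The sequence before the start of the factors that moved is shown because Prdm1, Cebpa and Irf4 rose together in medium and Klf4 stood apart from them. RefSeq windows of GRCm38.p6 were held for 6 of the 9 factors, all but Spi1, Maf and Bhlhe40, and the 250 bases before the start are printed 5′ to 3′ on the strand of the gene (minus for Prdm1 and Klf4, plus for Cebpa and Irf4). For Prdm1 this start lies inside the gene as GENCODE draws it, since a longer transcript begins upstream, and reads from the 3′ end do not show which start was used. Capitals mark matches on either strand to 8 motifs.
Prdm1 chr10:44458749-44458998: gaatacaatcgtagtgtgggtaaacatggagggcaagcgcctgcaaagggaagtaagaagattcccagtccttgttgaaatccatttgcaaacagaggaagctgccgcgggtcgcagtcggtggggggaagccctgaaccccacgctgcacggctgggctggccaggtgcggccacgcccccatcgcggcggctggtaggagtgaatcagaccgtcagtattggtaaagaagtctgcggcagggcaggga
Cebpa chr7:35119043-35119292: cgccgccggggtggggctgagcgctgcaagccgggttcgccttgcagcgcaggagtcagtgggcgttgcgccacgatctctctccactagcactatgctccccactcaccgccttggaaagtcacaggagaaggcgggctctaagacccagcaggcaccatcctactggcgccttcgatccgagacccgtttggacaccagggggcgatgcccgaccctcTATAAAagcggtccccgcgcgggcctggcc
Irf4 chr13:30748983-30749232: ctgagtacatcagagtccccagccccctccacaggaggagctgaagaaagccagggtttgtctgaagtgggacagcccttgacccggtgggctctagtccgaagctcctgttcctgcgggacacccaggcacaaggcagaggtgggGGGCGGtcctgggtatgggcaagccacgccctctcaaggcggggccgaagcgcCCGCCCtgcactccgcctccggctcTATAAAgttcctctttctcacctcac
Klf4 chr4:55532476-55532725: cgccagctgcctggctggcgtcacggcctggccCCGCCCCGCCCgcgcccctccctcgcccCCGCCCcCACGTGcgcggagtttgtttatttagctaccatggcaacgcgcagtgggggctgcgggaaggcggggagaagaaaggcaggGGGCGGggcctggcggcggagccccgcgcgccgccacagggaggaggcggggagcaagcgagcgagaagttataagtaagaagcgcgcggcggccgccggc
The motifs were GAGGAAGT for PU.1 (in 2.44% of 32851 windows of this length), TTGCNNAA for C/EBP (9.56%), the interferon regulatory factor motif, searched as 2 copies of GAAA with 2 bases between them (2.98%), TGCTGA for MAF factors (16.1%), AGTGAAAG for Blimp-1 (1.09%), the E-box CACGTG for BHLHE factors (6.02%), GGGCGG for SP and KLF factors (32.7%) and TATAAA (12.4%). The Blimp-1 and interferon regulatory factor motifs can share letters. The Prdm1 window held none of the 8. Cebpa and Irf4 had TATAAA starting 30 and 26 bases before the start, and Irf4 had 2 matches to GGGCGG. The Klf4 window held 1 CACGTG and 4 matches to GGGCGG. A match describes the letters only.

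Irf4 (ENSMUSG00000021356, plus strand, chr13:30749226-30766976) and Irf8 (ENSMUSG00000041515, plus strand, chr8:120736358-120756694) encode partners of PU.1 that bind composite ETS and IRF elements, IRF8 being required for monocyte development and IRF4 favouring alternative activation and dendritic cell functions. Irf4 was scarce, at 1.52, 2.61 and 1.44 CPM in ctrl, 2.74, 2.18 and 2.15 CPM in 4OHT, 1.15, 1.27 and 2.66 CPM in 4OHT+Fer1 and 1.69, 1.67 and 3.86 CPM in Fer1. The medium samples held 5.84 and 5.67 CPM, from 46 and 51 counts. Both medium samples exceeded all 12 supernatant samples, which overlapped with each other. Irf4 rose in medium against ctrl by 1.75 on the log2 scale (SE 0.44, adjusted p = 0.0246). The log2 fold change was 1.60 without replicate 1 and 2.20 without replicate 2, where each fit left a single medium sample. In 4OHT against ctrl its log2 fold change was 0.34, with a wide 95% interval from -0.57 to 1.25, and in 4OHT against medium it was -1.41 (SE 0.44, adjusted p = 0.103).

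Irf8 was abundant and even, with group means of 355 ± 46.4 CPM in ctrl, 366 ± 23.2 in 4OHT+Fer1, 386 ± 38.5 in Fer1 and 392 ± 39.6 in 4OHT (SD, n = 3 each), all overlapping, and 538 and 472 CPM in the medium samples. Both medium samples exceeded every supernatant sample, but the log2 fold change against ctrl of 0.49 (SE 0.17, adjusted p = 0.0832) did not pass. The difference of 4OHT from ctrl was 0.14, with a 95% interval from -0.18 to 0.46. The predicted gene Gm20388 overlaps Irf8 on the same strand, so reads could be split between them.

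Spi1 (ENSMUSG00000002111, plus strand, chr2:91082390-91115756), the ETS factor PU.1, had its group means in the same order as Prdm1 and Cebpa, from 299 ± 38.2 CPM in ctrl over 320 ± 29.7 in Fer1, 354 ± 50.6 in 4OHT+Fer1 and 368 ± 24.3 in 4OHT (SD, n = 3 each) to 476 and 407 CPM in medium. Every 4OHT sample, at 352, 356 and 396 CPM, exceeded every ctrl sample, at 324, 318 and 255 CPM. The log2 fold change was nevertheless 0.30 (SE 0.16, adjusted p = 0.564), and the 95% interval from -0.05 to 0.65 does not reach 1. In medium against ctrl it was 0.57 (SE 0.18, adjusted p = 0.0655), and neighbouring groups in the order overlapped except for 4OHT and medium.

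Cebpb (ENSMUSG00000056501, plus strand, chr2:167688915-167690418) encodes C/EBPβ, which takes over from C/EBPα in activated and emergency myelopoiesis and drives many inflammatory genes. Tmem189 overlaps it on the opposite strand. Its CPM ranged from 52.9 to 100 over all 14 samples, with 80.3 ± 17.4 in 4OHT, 72.7 ± 16.0 in ctrl, 71.8 ± 17.2 in 4OHT+Fer1 and 65.9 ± 11.3 in Fer1 (SD, n = 3 each) and 55.4 and 63.2 in medium. These groups overlapped except for medium and 4OHT, and the log2 fold change of 4OHT against ctrl was 0.12, with a 95% interval from -0.32 to 0.57. In each sample the log2 CPM of Cebpb minus that of Cebpa was 0.55 ± 0.52 in ctrl, 0.34 ± 0.88 in 4OHT+Fer1 and -0.01 ± 0.83 in 4OHT (SD, n = 3 each), and -0.82 ± 0.12 in medium (SD, n = 2). The exact two-sided permutation test of 4OHT against ctrl, which leaves the replicate number out, gave p = 0.5. Replicate 3 was the lowest of each supernatant group, with 0.03 in ctrl and -0.95 in 4OHT, and so widened these SDs. Within replicate numbers 1, 2 and 3 the balance in 4OHT minus that in ctrl was -0.43, -0.27 and -0.97.

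Maf (ENSMUSG00000055435, minus strand, chr8:115682942-115707794) encodes c-MAF, a large MAF factor that supports IL-10 and resident macrophage genes. The predicted gene Gm15655 overlaps it on the opposite strand. It had the highest CPM of the 9 factors, between 1047 and 1752 in all samples, and its log2 fold changes lay between -0.33 (4OHT+Fer1 against ctrl) and 0.35 (4OHT against 4OHT+Fer1), with adjusted p-values of at least 0.536. In 4OHT the samples were spread, at 1708, 1747 and 1090 CPM, with replicate 3 below all ctrl samples (1313, 1360 and 1752 CPM) and the other 4OHT replicates above 2 of them.

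Bhlhe40 (ENSMUSG00000030103, plus strand, chr6:108660629-108666925) encodes a repressor of the clock and of Il10 that shapes macrophage proliferation and cytokine output. The gene 0610040F04Rik overlaps it on the opposite strand. It was scarce, at 3.24, 7.34 and 5.74 CPM in ctrl, 5.16, 5.08 and 5.06 CPM in 4OHT, 5.86, 2.44 and 2.15 CPM in 4OHT+Fer1 and 5.75, 5.84 and 4.96 CPM in Fer1. The medium samples held 2.16 and 1.89 CPM, each from 17 counts. Medium was below every ctrl and every 4OHT sample but overlapped 4OHT+Fer1. The log2 fold change of medium against ctrl was -1.51 (SE 0.48, adjusted p = 0.0648), and it passed with DESeq2 (adjusted p = 0.026) and in a model of only the groups compared (adjusted p = 0.0191).

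In fresh medium 3 of the 9 factors passed the test against ctrl, all higher, and none of the 3 passed in a model without the replicate block, where the log2 fold change was 1.40 for Prdm1 (adjusted p = 0.227), 0.99 for Cebpa (adjusted p = 0.362) and 1.62 for Irf4 (adjusted p = 0.0781). Prdm1 rose by 1.97 on the log2 scale (SE 0.21, adjusted p = 0.000143) and Cebpa by 1.49 (SE 0.14, adjusted p = 7.3e-05), and both medium samples exceeded all ctrl samples for each gene. Medium had no replicate 3, so these values rest on replicates 1 and 2 for the medium side. In the model without the block, the ctrl side still held replicate 3. That was the highest ctrl sample for Prdm1 and Cebpa and the lowest for Irf4. Leaving out replicate 1 or replicate 2 left a single medium sample, so calls of those fits are not given. Compared with medium, 4OHT had less Cebpa, at a log2 fold change of -0.79 (SE 0.14, adjusted p = 0.00865), and the difference of Prdm1 was -0.78 (SE 0.21, adjusted p = 0.0577).

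Markers of other cell types moved in the same comparisons. The summed CPM of the 8 neutrophil markers was 39.1 and 56.5 in medium and at most 28.2 in the supernatant groups, carried by S100a8 and S100a9, while Mpo, Elane and Ly6g were at most 0.111 CPM. Of 4 neutrophil markers tested, S100a8 (log2 fold change 1.49, adjusted p = 0.0101) and Ngp (1.88, adjusted p = 0.0428) were called higher in medium against ctrl. In that comparison 7.79% of all genes tested were called. The neutrophil sum was lowest in replicate 3 of each supernatant group, where Cebpa was highest. In those samples it was 2.87 CPM in ctrl, 4.52 in Fer1, 5.02 in 4OHT+Fer1 and 4.05 in 4OHT.

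Of 4 osteoclast markers tested, 1 was called higher in 4OHT against ctrl (1.11% of all genes called) and in medium against ctrl (7.79%). This was Dcstamp, needed for the fusion of osteoclast precursors (log2 fold changes 2.05, adjusted p = 0.0205, and 3.33, adjusted p = 0.000324). Prdm1 and Cebpa were higher in the same comparisons. Dcstamp was scarce, at 0.304 to 2.87 CPM in ctrl and 1.26 to 11.9 CPM in 4OHT, which overlapped. The medium samples held 3.56 and 5.08 CPM. The summed CPM of the 6 osteoclast markers was 55.1 to 61.2 in ctrl, 53.5 to 66.002 in 4OHT and 49.0 to 51.5 in medium, mostly from Nfatc1, and Calcr had no count. Of 4 fibroblast markers tested, the collagen genes Col1a1 and Col1a2 were called higher in medium against ctrl (7.79% of all genes called). Their log2 fold changes were 1.17 (adjusted p = 0.0159) and 1.22 (adjusted p = 0.0141). Both were called lower in 4OHT against medium (-1.53 and -1.14), where 3.07% of genes were called. Col1a1 was also called lower in 4OHT against 4OHT+Fer1 (-1.14, adjusted p = 0.0456), the comparison in which Klf4 fell. The sum of the 8 fibroblast markers was 18.4 to 50.1 CPM in ctrl and 15.6 to 49.0 in 4OHT. It was 15.5 to 93.8 in 4OHT+Fer1, 19.3 to 120.8 in Fer1 and 33.5 to 102.6 in medium. In every group replicate 2 had the lowest sum.

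Of 4 monocyte markers and 1 dendritic cell marker tested, none was called by edgeR in a comparison described. In 4OHT against ctrl 1 monocyte marker had an unadjusted p under 0.05 in edgeR's test, as had 10.8% of all genes tested. The summed CPM of 5 monocyte markers, nearly all from Ccr2, was 288, 225 and 23.4 in replicates 1, 2 and 3 of 4OHT and 318, 244 and 164 in ctrl, and it was lowest in replicate 3 of each supernatant group, where Prdm1 and Cebpa were highest. Itgax, the dendritic cell marker with the most counts, ranged from 2.40 to 22.3 CPM and was highest in those same replicate 3 samples. The sums of 5 mast cell and basophil markers and of 5 erythroid markers were at most 3.06 and 0.521 CPM.

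The summed CPM of 8 macrophage markers was between 28021 and 43878 in 4OHT against 18862 to 27761 in ctrl, of which Lyz2 alone, encoding a lysozyme, held 20471 to 36193 and 13967 to 22647. In 4OHT against ctrl the log2 fold changes of Itgam, Fcgr1 and Cd14 were -0.26, -0.32 and -0.37, those of the other 5 markers were above 0, and none of the 8 was called. The part of any of these cell types in the differences of the 9 factors was not tested.

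Among relatives and partners of the 9 factors, 49 of 55 listed genes could be tested. In 4OHT against ctrl 1 of the 49 was called, where 1.11% of all genes tested were called. This was Nr1h3, which encodes the oxysterol receptor LXRα, at a log2 fold change of 1.37 (SE 0.27, adjusted p = 0.027). Every 4OHT sample was above every ctrl sample for Nr1h3. No relative was called in 4OHT against 4OHT+Fer1, where 1.03% of genes were. In the ETS family Spic, needed for iron-recycling macrophages, was at 1.76 on the log2 scale (adjusted p = 0.168) and Ets1 at -0.75 (adjusted p = 0.59) in 4OHT against ctrl. The largest differences elsewhere were 1.68 for Batf3 (adjusted p = 0.0861), -1.28 for Cebpe (adjusted p = 0.446), -0.67 for Bhlhe41 (adjusted p = 0.346) and 0.59 for Irf1 (adjusted p = 0.251), none of which passed. Batf3, Cebpe and Spic rested on few counts, at 0.66 to 0.80, 0.66 to 1.42 and 0.20 to 5.30 CPM in ctrl. Mafk, Mafg, Cebpd, Irf3, Klf16, Klf2 and Prdm2, the remaining genes with the largest differences of their families, lay between -0.14 and 0.45.

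In medium against ctrl 8 of the 49 were called higher and 1 lower, where 7.79% of all genes tested were called in either direction. The interferon regulatory factors contributed 4 of 6 tested, Irf1 at 1.361, Irf2 at 1.03, Irf5 at 1.42 and Irf7 at 1.495 on the log2 scale (adjusted p = 0.0021, 0.000981, 0.00821 and 0.00392 in edgeR's test), all factors known to act in interferon signalling. Spic (2.85), Batf3 (2.71), Nr1h3 (2.58) and Klf2 (1.09) were also called higher. Bhlhe41, the close relative of Bhlhe40, was called lower at -2.62 (SE 0.33, adjusted p = 0.000363), in the direction in which Bhlhe40 lay. In 4OHT against medium Irf5 (-1.18), Irf7 (-1.79) and Nr1h3 (-1.21) were called lower and Bhlhe41 (1.95) higher, where 3.07% of genes were called. The median log2 fold change of the 49 was 0.39 in medium against ctrl and 0.16 in 4OHT against ctrl.

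**Figure D4:**
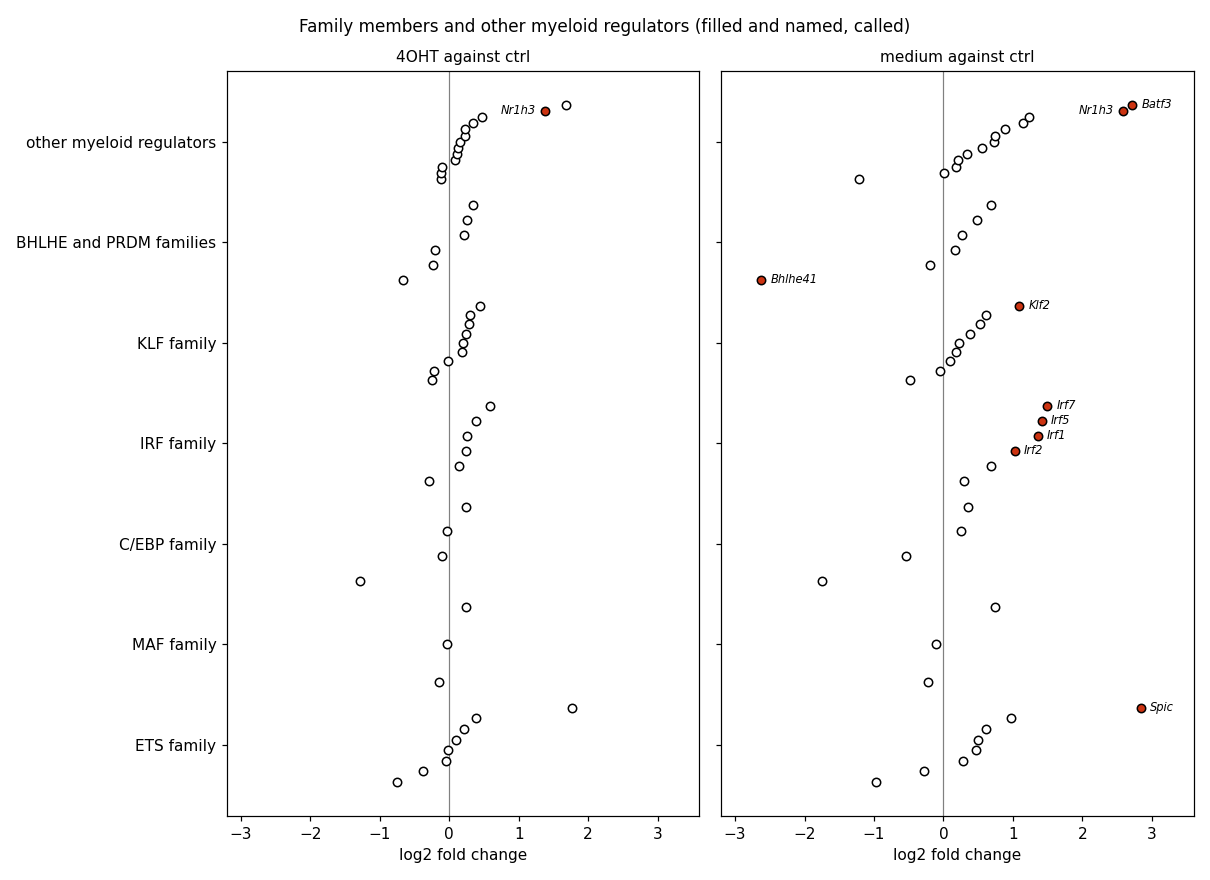
Log2 fold change (x axis) of 49 relatives and partners of the 9 factors by family (y axis), in 4OHT against ctrl and in medium against ctrl, with 1 point per gene, ordered within a family by fold change, and filled, named points where the gene was called. Nr1h3 is the 1 called gene on the left, and on the right 8 genes are called above 0 and Bhlhe41 below 0.

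The balance between relatives was then compared sample by sample. The log2 CPM of Klf4 minus that of Klf2, a related factor that keeps macrophages quiescent, was 0.13 ± 0.27 in ctrl, -0.03 ± 0.27 in Fer1, 0.83 ± 0.88 in 4OHT+Fer1 and -0.73 ± 0.30 in 4OHT (SD, n = 3 each), and -1.69 ± 0.25 in medium (SD, n = 2). All 4OHT samples lay below all samples of the other supernatants and above both of medium. For 4OHT against ctrl and against 4OHT+Fer1 the exact two-sided permutation p was 0.1, the smallest that 3 samples against 3 allow, and 0.429 after adjustment over the 30 tests of 5 pairs in 6 comparisons. Irf4 minus Irf8 was -7.46 ± 0.42 in ctrl, -7.26 ± 0.15 in 4OHT (SD, n = 3 each) and -6.40 ± 0.10 in medium (SD, n = 2), with an exact two-sided permutation p = 0.6 for 4OHT against ctrl. Bhlhe40 minus Bhlhe41 was -4.30 ± 0.84 in ctrl and -3.60 ± 0.14 in 4OHT (SD, n = 3 each), with an exact two-sided permutation p = 0.3. None of these permutation tests used the replicate number. Such differences are not divided by transcript length, so they show a change of balance between groups and not a ratio of molecules.

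**Figure D5:**
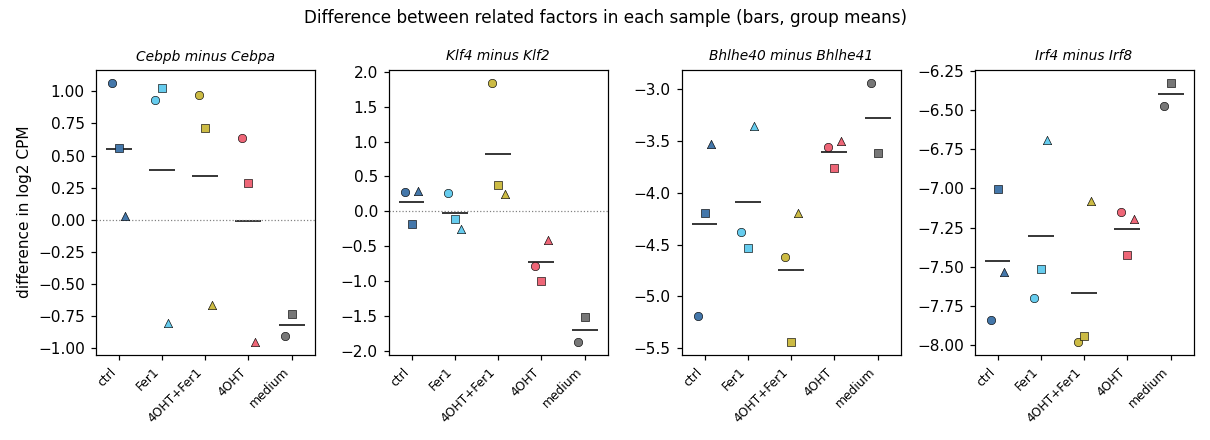
Difference in log2 CPM between the genes of each of 4 pairs in each sample (y axes, each with its own range that need not include 0), by group (x axis), with circles, squares and triangles for replicates 1, 2 and 3 and bars for group means. Klf4 minus Klf2 is at -0.73 on average in 4OHT and at 0.13 in ctrl, with no overlap.

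Genes linked to the factors by earlier knowledge were read next. Of all genes tested, 1.11% were called in 4OHT against ctrl, 7.79% in medium against ctrl and 3.07% in 4OHT against medium. Of 12 macrophage genes that depend on PU.1 and C/EBP factors, all were tested and none was called in 4OHT against ctrl, where their median log2 fold change was 0.14. Csf1r, the M-CSF receptor, stood highest with 1.03 (adjusted p = 0.219) and Csf3r followed with 0.52 (adjusted p = 0.727). Of 9 tested genes associated with MAF none was called in 4OHT against ctrl, where F13a1 had 0.92 (adjusted p = 0.581) and Stab1 0.55 (adjusted p = 0.386). In medium against ctrl the mannose receptor gene Mrc1 was at -2.27 on the log2 scale (adjusted p = 0.000692) and Il10 at 1.71 (adjusted p = 0.0261), while Maf itself stood at 0.05. Of 8 genes associated with IRF4, 4 could be tested and none was called, with Chil3 at 0.66 (adjusted p = 0.78) and Cd83 at 0.64 (adjusted p = 0.268) in 4OHT against ctrl. Of 6 tested genes associated with IRF8, Ciita was called in 4OHT against ctrl and Ciita and Ifi205 (3.54, adjusted p = 4.36e-05) in medium against ctrl, with Ifi205 at 0.86 (adjusted p = 0.21) in 4OHT against ctrl. In 4OHT against medium Fcgr1 (-1.11) and Ifi205 (-2.67) were called lower and Mrc1 (1.93) higher.

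Among 4 tested genes described as repressed by Blimp-1, 2 were called higher in 4OHT against ctrl. Of all genes tested, 1.11% were called in that comparison, in either direction. Prdm1 was higher in the same samples, and Ciita was also among the genes listed for IRF8. Ciita, the master regulator of MHC class II genes, was at 12.3, 7.44 and 36.0 CPM in ctrl and at 39.6, 31.3 and 64.2 CPM in 4OHT, a log2 fold change of 1.56 (SE 0.25, adjusted p = 0.0128). Id3, an inhibitor of basic helix-loop-helix factors, was at 5.57, 5.33 and 24.6 CPM in ctrl and at 56.3, 60.8 and 72.5 CPM in 4OHT, a log2 fold change of 2.66 (SE 0.36, adjusted p = 0.00737). Against 4OHT+Fer1 they were higher by 1.41 (adjusted p = 0.021) and 3.37 (adjusted p = 0.00228), and against ctrl medium was higher by 2.46 and 4.93 (adjusted p = 0.000182 and 3.85e-05 in edgeR's test). Bcl6 lay at -0.34 (adjusted p = 0.518) and Ccl8 at -0.80 (adjusted p = 0.645) in 4OHT against ctrl, and Ccl8 was called lower in medium, at -4.80 (adjusted p = 0.00193). In 4OHT against medium Ccl8 was called higher (4.01) and Id3 lower (-2.26). Id3 also passed the interaction test (3.53, adjusted p = 0.0489).

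The genes whose pattern over the 14 samples came closest to a factor were found by Pearson's r of log2 CPM after removal of the replicate number, among the genes tested, predicted genes left out. The points share 5 groups, so that r mostly follows the group means. Prdm1 was closest to Ciita (r = 0.984), to the invariant chain gene Cd74 (r = 0.978) and to 7SK (r = 0.977). Cebpa was closest to Itga4 (r = 0.985), Slc30a1 (r = 0.981) and Cd74 (r = 0.978), and the r of Prdm1 with Cebpa was 0.97. Irf4 and Irf8 shared the neighbours Mier3 and Hspb1, with r between 0.933 and 0.976. Klf4 was closest to Tbc1d31 (r = 0.950), Pcnt and Hmgn5, and it ran against Prdm1 (r = -0.79). The closest genes were Ubr4, Arhgap39 and Srrm2 for Spi1 (r of at least 0.970), Osbpl11, Fam102b and Mgst1 for Maf (r of at least 0.977), H2bc4, Ttc32 and Sec24d for Cebpb (r of at least 0.933) and Abcb8, Tbc1d9 and Zfp563 for Bhlhe40 (r of at least 0.879).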

How the data were processed

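RNA of pBMDMs was sequenced from the 3′ end with QuantSeq as 50-bp single reads. The authors aligned reads with STAR 2.7.10a and quantified genes with Salmon 1.5.2 in an nf-core workflow. The values the authors deposited are expected counts of genes (estimated counts, not normalized). The methods name a human build and the submitters' processing notes list GRCh38 and GRCm38. The deposited identifiers are mouse, so coordinates were taken from GENCODE M21, which uses GRCm38. A table of the authors' own comparisons (log2 fold changes, p-values), with 14 columns of CPM per sample, was not used.

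Estimated counts were rounded to whole numbers, where the design had foreseen counts. Genes were kept by filterByExpr (minimum count 10) of edgeR 4.0.16 (R 4.3.3), which left 12851 of 55414. All 14 samples entered 1 quasi-likelihood model with group and replicate number, since the methods have the mouse in the model. Same-numbered samples of different groups deviated together, with a median correlation of 0.247 over 26 pairs (lowest 0.0022) and -0.139 over 52 other pairs. The deviations were taken from group means, so a positive correlation of same-numbered pairs pushes that of other pairs below 0. The second value is therefore no separate evidence of pairing. The replicate correction of log2 CPM (prior count 2) used limma 3.58.1. All tests were two-sided. Replicates were taken as separate samples as labelled. The p-values of the model measure the spread left after group and replicate number were fitted, not the whole spread between replicates. Scripts were tested on simulated data.

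The members and gene lists were chosen with earlier results of these data known, so list counts are no independent support. Named genes were all 9 factors, the listed genes and cell type markers called in a comparison described, the 2 per list (cell type markers aside) with the largest change in 4OHT against ctrl and the 3 closest patterns per factor. Some values are not reported here. Alternatives were DESeq2 1.42.0, RLE scaling, other filters, no fold threshold, no replicate block, only the groups compared and each replicate left out.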

Additional observations from a re-analysis of the deposited data

Results flagged for a closer look

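Klf4 stood out because the difference made by 4OHT pointed down in all 3 replicates without Ferrostatin-1 (-0.45, -0.33 and -1.002 on the log2 scale) and up in all 3 with it (0.79, 0.16 and 0.27). The interaction was -1.04 (SE 0.29), and its adjusted p of 0.364 in edgeR's quasi-likelihood test did not pass. The 4OHT+Fer1 sample of replicate 1, at 95.9 CPM, was the highest of all 14. Groups of 3 and of 2 are too small for the test of single outlying samples.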

How the results depend on the processing

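Of 567 values for single factors under the alternatives, 541 kept their direction, 26 were reversed, over 20 results whose main log2 value was at most 0.284 in size, and 15 changed their side of the threshold. The number of factors called in 4OHT against ctrl, 1 in the model reported, was 0 without the replicate block (a model that is not paired by replicate number) and 0 in a model of only the groups compared, 2 with no fold threshold and 0 to 1 with a replicate left out. In medium against ctrl, 3 in the model reported, it was 0 without the replicate block and 3 without replicate 3. Leaving out replicate 1 or replicate 2 left a single medium sample, so those counts are not given. In 4OHT against 4OHT+Fer1 it was 2 with no fold threshold and 0 to 1 with a replicate left out. In 4OHT against medium it was 1 in a model of only the groups compared and 1 with no fold threshold. DESeq2 and the model with no filter on low counts called 4 in medium against ctrl, Bhlhe40 being the addition. The shares of all genes called under these settings, with only the groups compared or with a replicate left out are not given here. These counts are therefore not read as results about the factors. Without the replicate block 6 genes in all were called in 4OHT against ctrl and 457 in medium against ctrl, where 143 and 1001 were called with it.

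Reversals were small. Bhlhe40 in Fer1 against ctrl was -0.00044 with no filter and -0.000155 with DESeq2, and Maf in 4OHT against medium was 0.0030 with no filter and 0.12 in a model of only the groups compared. The other reversals came with a replicate left out. For 4OHT against ctrl Maf then ranged from -0.15 to 0.36 and Bhlhe40 from -0.36 to 0.18. Spi1 in 4OHT against 4OHT+Fer1 ranged from -0.0073 to 0.17. For 4OHT+Fer1 against ctrl Cebpb ranged from -0.18 to 0.19, Irf4 from -0.79 to 0.30 and Irf8 from -0.13 to 0.16. For Fer1 against ctrl the ranges were -0.052 to 0.24 for Spi1, -0.22 to 0.021 for Maf, -0.040 to 0.096 for Cebpa, -0.41 to 0.13 for Cebpb, -0.30 to 0.84 for Irf4, -0.050 to 0.24 for Irf8, -0.057 to 0.24 for Prdm1, -0.27 to 0.12 for Klf4 and -0.27 to 0.25 for Bhlhe40. Maf in medium against ctrl ranged from -0.090 to 0.23. For 4OHT against medium Maf ranged from -0.14 to 0.13 and Klf4 from -0.072 to 0.43. The interaction ranged from -0.046 to 0.54 for Maf and from -0.25 to 0.30 for Cebpb. The causes of these changes were not tested. Irf4 and Bhlhe40 rested on as few as 11 and 17 counts in a sample, which limits what their intervals can show.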
